A study of Aedes aegypti with 3 samples.

Results

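Broad open regions are described here, chosen by width alone: FAIRE peaks of the AaegL3 assembly, outside the mitochondrial sequence, that spanned 2500 bp or more. There were 3978 of them among 124957 nuclear peaks, or 3.18% (exact 95% interval 3.09 to 3.28%). The samples were wild-type whole embryos of the yellow fever mosquito *Aedes aegypti*, strain Liverpool-IB12 (LVP-IB12), collected 49 to 51 h after egg laying, with no treatment and no second group. Male and female embryos were mixed, and all cell types of the embryo contributed to the signal. The authors pooled the 3 replicates before calling peaks, so each peak carried 1 value and the spread between replicates could not be seen. Width, strength and summit came from the same call, and width chose the members. Every comparison with narrower peaks is therefore a description with no test, and intervals on shares and medians cover counting error only.

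FAIRE, the formaldehyde-assisted isolation of regulatory elements, crosslinks proteins to DNA, shears the chromatin and recovers the DNA that stays free of bound protein. Nucleosomes crosslink well, so the recovered DNA comes mainly from stretches that lack them. Enhancers, promoters and insulators are typically open in this way, and a regulatory element is usually the length of a nucleosome or a few of them. A peak caller joins neighbouring enriched positions into 1 peak when the gap between them is short, so a wide peak can hold a single long opening or several adjacent ones. The summit is the position with the highest pile-up, that is, the largest number of extended reads lying over it.

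The broad regions covered 11.7 Mb of the 141.0 Mb under all nuclear peaks, which is 8.32% of the covered bases. Their mean width was 2947 ± 426 bp (SD over 3978 regions), with a median of 2818 bp, whereas the median of narrower peaks was 944 bp. Most lay close to the threshold. Of the 3978 regions, 2649 (66.6%) were under 3000 bp, 116 were 4000 bp or wider and 10 were 5000 bp or wider. The limit of 2500 bp cut through a continuous range of widths. Among the members exactly 2500 bp wide, 3 had a −log10 p of 5.11 (supercont1.464, 281143 to 283642), 8.32 (supercont1.73, 2071913 to 2074412) and 9.30 (supercont1.14, 3051787 to 3054286). Others of that width were stronger, such as 18.0 on supercont1.106 (1294658 to 1297157) and 19.2 on supercont1.110 (200528 to 203027). Among the peaks left out by 1 bp, 3 had 6.85 (supercont1.120, 1324312 to 1326810), 7.25 (supercont1.539, 620249 to 622747) and 7.25 (supercont1.186, 174940 to 177438). These 3 on each side do not stand for all peaks near the limit. The median −log10 p was 12.3 over the 82 peaks in the 10 bp of width from the limit up. It was 13.3 over the 68 peaks in the 10 bp just below it. The strengths on the 2 sides of the limit overlapped. Positions here count from 1 on the AaegL3 supercontigs.

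The widest region lay on supercont1.13 at 4014474 to 4020616 and spanned 6143 bp. Its summit was called at a −log10 p of 24.1 and a fold enrichment of 1.71 over the local background, at 71.8% of the width from the start. The next in width were 5494 bp on supercont1.152 (1395626 to 1401119, −log10 p 24.3, fold 1.87) and 5450 bp on supercont1.403 (150490 to 155939, −log10 p 30.6, fold 2.33). The summit sat near the middle of the region on supercont1.152, at 48.6% of the width, and near the start of that on supercont1.403, at 9.56%. The next 4 lay on supercont1.223 (501050 to 506479, −log10 p 14.4), supercont1.7 (3842350 to 3847759, 17.4), supercont1.346 (1096418 to 1101816, 9.61) and supercont1.19 (750940 to 756262, 18.7). The remaining 3 of the 10 widest were on supercont1.266 (5318 bp, −log10 p 11.8), supercont1.851 (5079 bp, 9.88) and supercont1.3901 (5040 bp, 18.1). The region on supercont1.3901, from 564 to 5603, was the only peak of its supercontig. None of the 10 widest was among the 10 strongest.

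The strongest broad region was on supercont1.1330 at 115376 to 118785, 3410 bp wide, with a −log10 p of 272 and a fold enrichment of 3.65. Next came supercont1.258 (368144 to 370791, −log10 p 204, fold 6.08), supercont1.600 (573899 to 576776, 173, fold 2.99), supercont1.356 (866876 to 870070, 164, fold 7.07) and supercont1.180 (1026208 to 1029106, 161, fold 4.96). A high −log10 p did not go with a high fold in each case. On supercont1.1330 the pile-up was 1089 extended reads over a local background of 298, whereas on supercont1.356 it was 334 over 46.4. The other 5 of the 10 strongest were on supercont1.347 (−log10 p 137), supercont1.259 (118), supercont1.303 (113), supercont1.540 (106) and supercont1.668 (104). These 10 were the broad regions above a −log10 p of 100, 0.251% of them, whereas 82 narrower peaks (0.0678%) were above it.

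Broad regions were stronger than narrower ones at their summits, although the gain per class of width became smaller towards the top. Strength is given as the −log10 p of the peak caller, which grows with both the fold and the depth. The median −log10 p was 6.06 for peaks from 550 to under 1000 bp, 8.72 from 1000 to under 1500 bp, 10.7 from 1500 to under 2000 bp, 12.1 from 2000 to under 2500 bp and 13.3 for the broad regions (exact 95% interval 13.0 to 13.5). The median fold enrichment in the same order was 1.75, 1.95, 2.08, 2.17 and 2.23. Within the broad regions the increase nearly stopped. The median −log10 p was 13.0 under 3000 bp, 13.4 from 3000 to under 3500 bp, 13.9 from 3500 to under 4000 bp and 14.6 at 4000 bp or more, while the median fold was 2.24, 2.24, 2.22 and 2.19. Across peaks, Spearman's rho between width and −log10 p was 0.553 over the 120979 narrower peaks and 0.0424 over the 3978 broad regions. All points share the same libraries, and a range cut at 2500 bp narrows the widths that enter the second value.

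**Figure D1:**
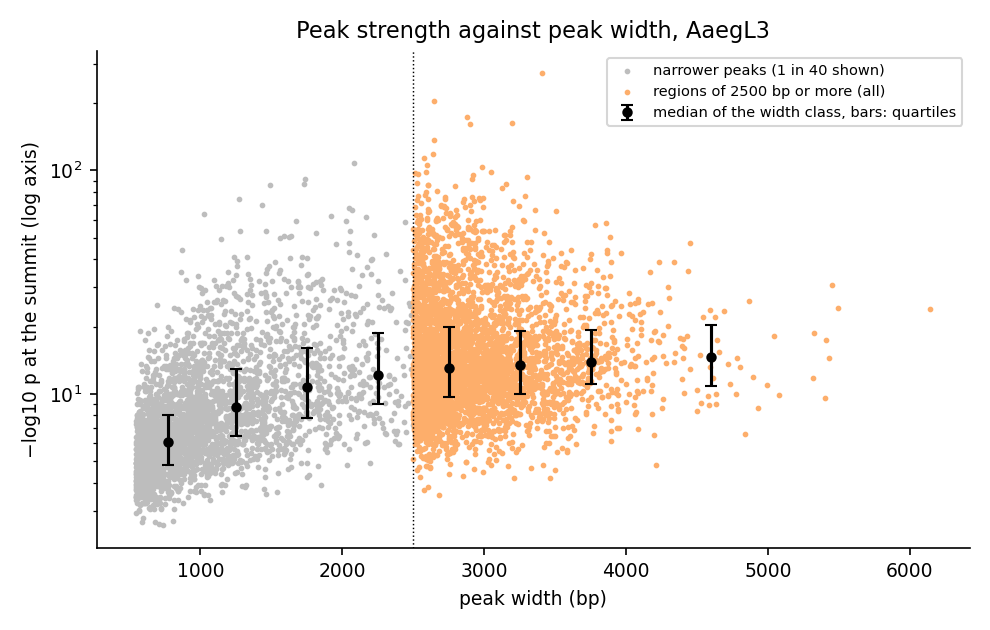
Strength of AaegL3 peaks (−log10 p at the summit, log axis) against peak width in bp, with all 3978 broad regions in orange, 1 in 40 of the narrower peaks in grey and the limit of 2500 bp as a dotted line. Black points are the medians of width classes and bars their quartiles; the medians climb from 6.06 to 12.1 below the limit and only from 13.0 to 14.6 above it.

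Among all nuclear peaks 10.1% had a −log10 p in the upper decile of the list, 17.4 or more, and 1249 broad regions did so, or 31.4% (30.0 to 32.9%). At the other end, 291 broad regions (7.32%) were below the median of the list, 7.39. The 5 weakest were on supercont1.218 (917837 to 920517, −log10 p 3.53), supercont1.766 (373614 to 376186, 3.70), supercont1.323 (426088 to 428693, 3.84), supercont1.108 (666109 to 669572, 4.19) and supercont1.862 (221186 to 224399, 4.21). In these 5, the summit lay near an edge. It stood at 97.4%, 2.41%, 8.63%, 96.7% and 87.7% of the width, in the same order. All broad regions had a q below 0.05.

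The fold and the p together gave back the pile-up at each summit and the background it was set against. The background is the larger of a genome-wide level, 39.48 extended reads, and a local mean that includes the region itself. The median pile-up was 106 in broad regions and 88 in narrower peaks, and the median background was 46.6 and 44.3. A background at the genome-wide level was found for 22.9% of broad regions (21.6 to 24.3%) and for 35.1% of narrower peaks (34.8 to 35.4%). From the narrowest class of peaks to the broad regions this share went through 37.4, 34.1, 30.2, 27.4 and 22.9%. A background above 100 was found for 69 broad regions (1.73%) and 310 narrower peaks (0.256%), and for 12 of the 116 regions of 4000 bp or more (10.3%). The widest region, on supercont1.13, had 424 extended reads over a background of 247. The highest background in a broad region, 307, was that on supercont1.600. The peaks were called without a control library, so sequence present in many copies and open chromatin cannot be told apart from these values. Without the 69 regions the median −log10 p of the broad regions was 13.2.

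The summit of a broad region was in the middle part less often than that of a narrower peak. With each region cut into 3 equal parts, it lay in the middle part for 35.5% of them (34.1 to 37.1%), against 60.8% of narrower peaks. By class of width from narrow to broad the share was 62.2, 69.5, 44.8, 39.5 and 35.5%. Cut into 10 equal parts from start to end, the broad regions had 1.31, 15.0, 12.8, 11.3, 10.8, 10.5, 10.5, 12.7, 14.1 and 1.11% of their summits in each. The parts just inside both ends thus held the most, and the outermost parts hardly any. The caller extends each read to 550 bp. In 74 broad regions (1.86%) the summit was closer to an edge than 50% of that length, against 32.9% of narrower peaks, which have less room. Summits were at least 550 bp from both edges in 2712 broad regions (68.2%), and the median distance from summit to nearer edge was 782 bp. The start and the end were balanced, with 51.2% of summits nearer the start.

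**Figure D2:**
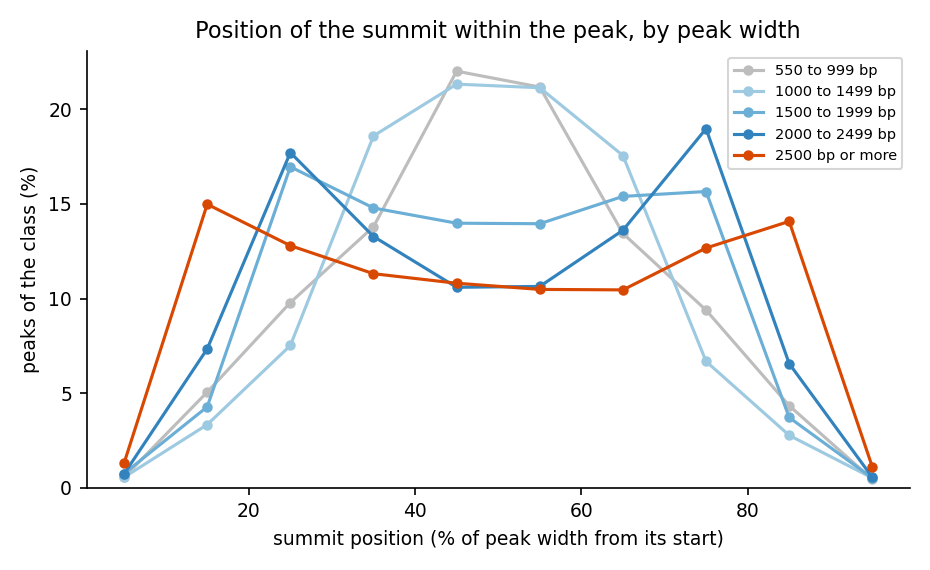
Share of peaks (%) with their summit in each of 10 equal parts of the peak, from start to end, for 5 classes of peak width in AaegL3. Peaks under 1500 bp have 1 maximum in the middle, whereas the broad regions have 15.0% and 14.1% in the parts just inside the ends and 10.5 to 10.8% in the middle.

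Broad regions with a summit far from the middle were somewhat weaker. With each region cut into 4 equal parts, 1777 had the summit in the first or the last (44.7%, against 18.7% of narrower peaks), and their median −log10 p was 12.5. For the 1414 with a summit in the middle of 3 parts it stood at 13.3. The 74 regions with a summit closest to an edge were weaker, with a median of 7.02. Broken into 4 groups of rising strength, the broad regions had a median width of 2761, 2846, 2863 and 2816 bp. The share with a summit in the first or last of 4 parts was 54.5% in the weakest group, 43.9 and 43.3% in the next and 37.0% in the strongest. The median gap to the nearest peak was 4794 bp in the weakest group and 5817 bp in the strongest.

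Broad regions were found on 1022 of the 2389 supercontigs with a peak (42.8%). Of these, 359 held 1, 162 held 2, 409 held 3 to 9, and 92 held 10 or more, the last with 1283 regions together. The supercontigs without a broad region were small, with a median of 2 peaks against 76. Over the 413 supercontigs with at least 100 peaks, Spearman's rho between the number of peaks and the number of broad regions was 0.693, given as a description. The 5 with the most were supercont1.9 with 29 broad regions among 603 peaks (4.81%, 3.24 to 6.83%), supercont1.2 with 27 of 585, supercont1.3 with 25 of 653, supercont1.49 with 24 of 475 and supercont1.90 with 22 of 352. Supercont1.8 and supercont1.62 also held 22. The median strength of their broad regions ran from a −log10 p of 12.1 on supercont1.3 to 16.7 on supercont1.49 over the 5 first named.

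Over the same 413 supercontigs, the share of broad regions had a median of 3.0% with quartiles of 2.15 and 3.99%. It reached 9.83% on supercont1.333, where 17 of 173 peaks were broad (5.83 to 15.3%), 8.57% on supercont1.412 (9 of 105) and 8.40% on supercont1.470 (10 of 119). None of the 131 peaks of supercont1.337 was broad (exact interval 0 to 2.78%), and none of the 114 of supercont1.254 (0 to 3.18%). The interval of supercont1.254 reached the share of the whole list, 3.18%. These 5 supercontigs were picked for their extreme shares. Counting error alone put the lower bounds of the 3 high shares at 5.83, 3.99 and 4.10%.

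**Figure D3:**
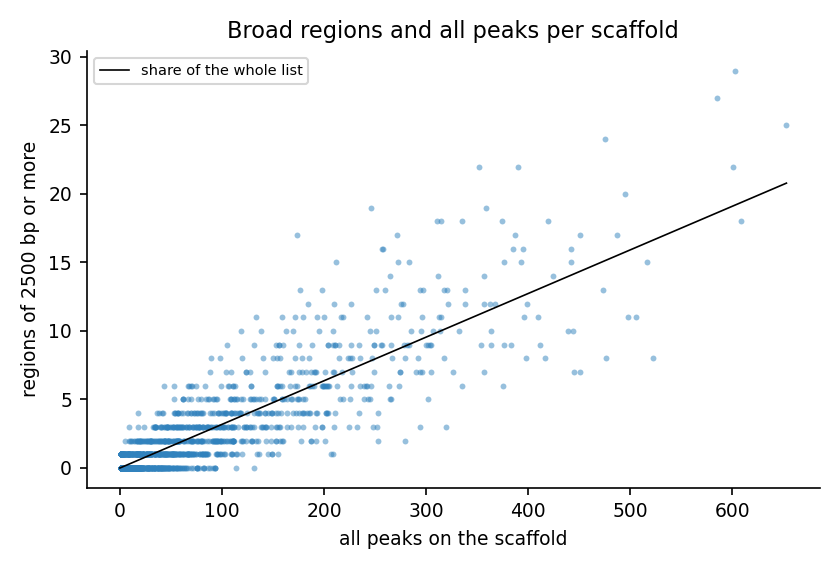
Number of broad regions against the number of all peaks on each of the 2389 AaegL3 supercontigs, 1 point each, with a line at the share of the whole list (3.18%). Points spread around the line, from 0 of 131 peaks to 17 of 173, and supercont1.9 stands at the top with 29.

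Broad regions stood farther from the next peak than narrower peaks did. The gap from edge to edge had a median of 5164 bp (5082 to 5267 bp) and quartiles of 3660 and 7561 bp, against a median of 3243 bp and quartiles of 971 and 6157 bp for narrower peaks. The difference of the medians, 1921 bp, was 1204 bp when peaks with a −log10 p under 5 were left out. From the narrowest class to the broad regions the median gap went through 2584, 3450, 4417, 4899 and 5164 bp. The difference was mainly one of short gaps. A gap under 1000 bp was found for 393 broad regions (9.94%) and for 25.6% of narrower peaks, whereas a gap of 10000 bp or more was found for 530 (13.4%) and for 10.2%. The smallest gap in the list was 101 bp, since closer peaks are joined by the caller, so a wide peak can hold what would otherwise be neighbours with short gaps. How much of the difference in gaps this joining makes up was not tested. Around the summit, a broad region had 1.31 ± 1.04 other summits (SD over 3978 regions) within 10 kb and a narrower peak 1.81 ± 1.18. No other summit within 10 kb was found for 23.9% of broad regions and 13.5% of narrower peaks.

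At a larger scale the surroundings were alike. Within 50 kb of the summit, broad regions had 9.91 ± 3.86 other summits and narrower peaks 10.1 ± 3.87, a difference far smaller than the SD over regions. On the supercontigs with at least 100 peaks, where fewer windows run off an end, the numbers were 10.7 ± 3.48 and 10.8 ± 3.53. The nearest peak of a broad region was also ordinary in size. Its median width was 991 bp, against 931 bp for the nearest peak of a narrower one, with a median −log10 p of 7.99 and 7.13.

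**Figure D4:**
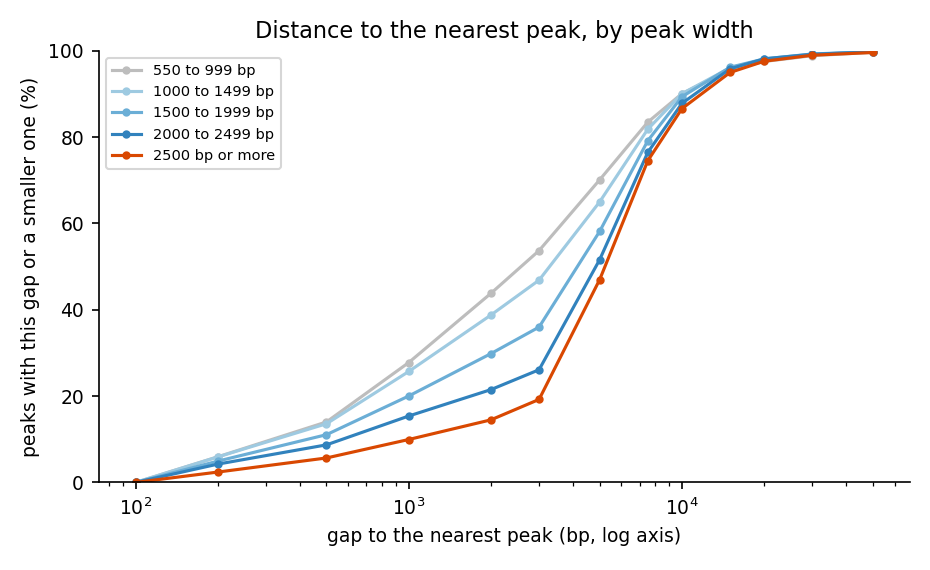
Cumulative share of peaks (%) by the gap from edge to edge to the nearest peak (bp, log axis), for 5 classes of peak width in AaegL3. The curve of the broad regions runs lowest up to about 10 kb, with 9.94% under a gap of 1000 bp, and the curves meet beyond.

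Among all peaks with a neighbour, 6.08% had a broad region next to them on at least 1 side. Of the 3952 broad regions with a neighbour, 378 did, or 9.56% (8.67 to 10.5%), and of narrower peaks 5.97%. The share rose with width through all classes. From the narrowest class to the broad regions it went through 5.48, 6.12, 6.78, 8.38 (7.72 to 9.07%) and 9.56%, and the intervals of the last 2 overlapped. A pair of broad regions in a row occurred 168 times, and 3 in a row 14 times, with none longer. Most broad regions were thus flanked by narrower peaks. Over the 3619 that shared a supercontig with another, the median distance from summit to the nearest broad summit was 88.9 kb with quartiles of 34.9 and 192 kb. The closest pair lay on supercont1.265, where 155818 to 158576 and 159073 to 161645 were 496 bp apart, with a −log10 p of 20.3 and 26.3. Both had a high background, 157 and 148. The next closest pairs were 920 bp apart on supercont1.997 (288574 to 291084 and 292005 to 294891, −log10 p 6.27 and 11.1) and 1381 bp apart on supercont1.678 (218144 to 220816 and 222198 to 224750, −log10 p 8.66 and 9.96). Those pairs had a background of 46.0 to 61.5.

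The study names 16 AaegL3 intervals that acted as enhancers in transgenic reporter assays, in which a candidate sequence drives a visible gene in an insect. None of the peaks that overlapped the 16 intervals was broad, and a count of 0 in 16 allows a share of up to 18.8% (3 counts of the total). Their widths ran from 610 to 2252 bp with a median of 1056 bp, and the widest was on supercont1.911 (297845 to 300096, −log10 p 8.70). An overlap of at least 1 bp was enough for a match, so these are not the widths of the tested sequences. On supercont1.911, supercont1.671 and supercont1.174 the overlap was under 50% of the peak or of the interval. The share of 3.18% in the whole list lies below that limit, so no difference was detectable with 16 intervals.

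The AaegL5 assembly places the genome on 3 chromosomes and its gene table allows positions at genes. In the AaegL5 list the digit 3 never occurs and each 3 appears to be written as 5, so many widths have several readings. Of 126980 peaks on the chromosomes, 3578 were 2500 bp or wider under every reading that kept the peaks in order (2.82%, 2.73 to 2.91%). A further 103189 were narrower under every reading, and the other 20213 could not be decided. These 3578, called surely broad, were 824 of 29656 peaks on chromosome 1 (2.78%, 2.59 to 2.97%), 1478 of 52886 on chromosome 2 (2.79%, 2.66 to 2.94%) and 1276 of 44438 on chromosome 3 (2.87%, 2.72 to 3.03%). The intervals of the 3 chromosomes overlapped. Per Mb there were 2.65, 3.12 and 3.11 surely broad regions, in the order of the peaks as a whole, which numbered 95.4, 111 and 108 per Mb.

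The summit was known to within 250 bp for 3044 surely broad regions, and 59.0% of these summits (57.2 to 60.7%) lay in the span of a protein-coding gene, against 58.7% (58.4 to 59.0%) of peaks that were surely narrower. Gene ends gave a different order. The table gives no strand, so both ends of each gene were used, the start and the end of transcription together. The share of summits within 500 bp of an end was 5.34, 8.94, 11.8 and 13.1% (12.1 to 14.1%) in the 4 classes of narrower peaks in order of width, and 10.4% (9.38 to 11.6%) in the surely broad regions. The rise with width thus did not continue into the broad regions, and the last 2 intervals did not overlap. From 3000 to under 3500 bp the share was 7.36% (5.26 to 9.97%, 38 of 516). The choice of the summit bears on this value. When any part of the peak could reach the window, the shares were 6.75, 12.1, 17.2, 20.2 and 18.9%. Each peak was then taken from its lowest start to its highest end over the readings, and a wider peak reaches farther by its size alone. When the summit had to lie within 2500 bp the shares were 11.7, 15.3, 19.2, 21.3 and 19.4%. With both of these rules the intervals of the last 2 classes overlapped.

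**Figure D5:**
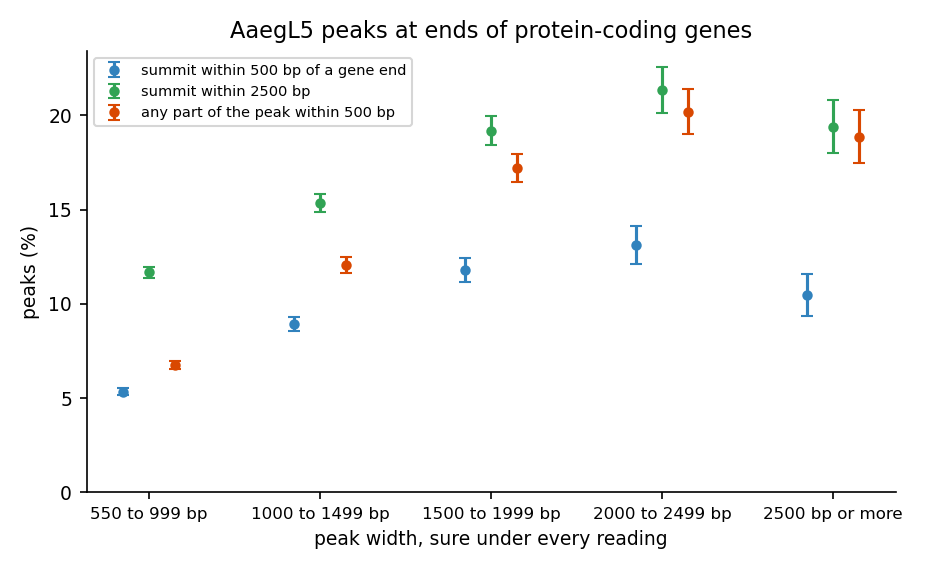
Share of AaegL5 peaks (%) at an end of a protein-coding gene by class of peak width, for peaks whose class was the same under every reading of the digits. Points are shares under 3 rules and bars exact 95% intervals; with the summit within 500 bp the share is 13.1% just below the limit and 10.4% in the broad regions.

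Ends of other kinds of gene were rare at broad summits. A lncRNA gene, which makes a long RNA that is not translated, had an end within 500 bp for 1.12% of the surely broad summits (0.775 to 1.56%, 34 of 3044) and 0.679% of narrower ones (0.628 to 0.733%). From 1500 to under 2000 bp the share was 0.912% (0.735 to 1.12%), and from 2000 to under 2500 bp it was 0.735% (0.506 to 1.03%). Both intervals overlapped that of the broad summits. A tRNA gene had an end within 500 bp for 7 broad summits, 0.230% (0.0925 to 0.473%), and 0.162% of narrower ones. The median distance from a surely broad summit to the nearest end of a protein-coding gene was 28278 bp (25964 to 30554 bp), against 31150 bp for narrower peaks. In the classes nearest in width it was no longer than in the broad regions. It was 27600 bp (26325 to 28952 bp) from 1500 to under 2000 bp and 27113 bp (25490 to 29136 bp) from 2000 to under 2500 bp.

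Only the 3044 surely broad summits placed to within 250 bp and the protein-coding genes longer than 1 kb were searched. At least 1 such summit lay in 1346 of the 13601 protein-coding genes on the chromosomes (9.90%). There was 1 in 1025 genes, 2 in 209 and 3 or more in 112. Shorter genes could not be counted, but they remain in the 13601 and in the median span of all protein-coding genes. These genes were long, with a median span of 129 kb against 12.3 kb for all protein-coding genes. A longer span has more room for any peak. No share per length and no share of genes holding a narrower summit was computed. The largest number, 8, was in LOC5564151 (chromosome 1, 68219644 to 68617384, 398 kb, 46 peaks in all) and in LOC5575438 (chromosome 2, 242497295 to 243109904, 613 kb, 73 peaks). LOC23687700 and LOC5577287 held 7 each, and LOC5574548 and LOC5576319 held 6 each. These 6 genes were chosen after their counts were seen, and the table gives no names for them beyond the identifiers.

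Of the 20 widest surely broad AaegL5 regions, 9 had a summit placed in the span of a protein-coding gene and 7 had it outside. In 4 the summit could not be placed to within 250 bp. The widest, on chromosome 2, started at 446906732 to 446906752 and was 6587 to 6827 bp wide, with the nearest gene end, of LOC110675240, 136986 bp from its summit. The next, on chromosome 3 from 292216402, was 5730 to 5750 bp wide and its summit was 454 bp from an end of the lncRNA gene LOC110678378, which the region overlapped. The third, on chromosome 1 from 24361841, was 5493 to 5715 bp wide with its summit in LOC5564667, 44016 bp from an end of the gene. The other 8 genes that held such a summit were LOC5569471, LOC5567468, LOC23687425, LOC5569804, LOC110679023, LOC5573626, LOC5568544 and LOC110678777. Only LOC110679023, a gene of 3004 bp, had an end within 1000 bp of the summit, at 634 bp. The summits of the 5 remaining regions were outside genes, nearest to an end of LOC5572434 (693 bp, a gene that the region itself overlapped), LOC110679695 (4868 bp), LOC5573116 (26400 bp), LOC110678974 (63093 bp) and LOC5573640 (71599 bp). The 4 whose summit was not placed were closest to ends of LOC110674296, LOC110677948, LOC5565371 and the lncRNA gene LOC110675729. The region at LOC110677948 lay wholly in the span of that protein-coding gene (chromosome 3, 179007007 to 179044315) under every reading. Its summit was therefore inside the gene as well.

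The paper bounds the predicted sex-determining M/m locus on chromosome 1 in 2 ways, and the narrower stretch, from 151.68 to 152.95 Mb, was used. In it, 2 of 36 peaks were surely broad, against 2.82% on all chromosomes. Counting these 2, 10 were broad under at least 1 reading, against 18.7%. The 2 started at 152187284 to 152187286, 2629 to 2631 bp wide, and at 152847932 to 152847952, 2698 to 2718 bp wide.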

How the data were processed

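Peak lists for AaegL3 and AaegL5 from whole *A. aegypti* embryos were analysed. The authors used Trimmomatic to clean reads, BWA to align them and SAMtools to drop mapping qualities under 10, and pooled the 3 replicates. Peaks were then called by MACS2 (p limit 0.01, reads extended to 550 bp, no control). Versions of these programs: not given in the sources used here. In the deposited lists the authors give, for each peak, a fold enrichment (a ratio) at the summit, the −log10 of its p and q values, and a score derived from the −log10 p. The lists hold no depth per replicate, and no replicate could be left out.

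Members, lists and alternatives were chosen with earlier results of these data known. Regions named are the 10 widest, the 10 strongest, the 5 weakest, the 3 closest pairs, the 5 supercontigs with most members, 3 on each side of the limit, and the genes at the 20 widest AaegL5 regions. Others were chosen after their values were seen. Gene lists planned by description were not applied, since the RefSeq gene table of AaegL5.0 gives neither descriptions nor strand nor exons.

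Pile-up and background were solved from the fold, taken as (pile-up + 1) over (background + 1), and the Poisson p. All 124957 pile-ups came out whole, within 0.05. For AaegL5, each 5 was read as 3 or 5, and readings were kept that left peaks sorted, apart from each other, between 550 and 7000 bp wide and around their summit. A single reading was left for 24.3%, and sequence outside the chromosomes was not used. The first procedure was tested on simulated data, and the second on the AaegL3 list with each 3 written as 5. Intervals are exact 95% (Clopper-Pearson for shares, order statistics for medians). Alternatives were other width limits, a −log10 p of at least 5, a q below 0.05, larger supercontigs, other distances, narrower peaks of like strength and other windows at genes. The work used numpy 2.4.6, scipy 1.17.1, pandas 2.3.3 and matplotlib 3.10.9.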

Additional observations from a re-analysis of the deposited data

How the results depend on the processing

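With a limit of 2000 bp there were 10651 regions, with 38.0% of summits in the middle of 3 equal parts, a median −log10 p of 12.5, a median gap of 5008 bp, 1.41 other summits within 10 kb and 20.8% next to another. With 3000 bp there were 1329 regions on 642 supercontigs, with 13.7, 5332 bp, 1.21 and 4.88% for the last 4 measures. These values shift partly by construction, since the limit sets what counts as a neighbour. Dropping peaks with a −log10 p under 5 gave a median gap of 5663 bp, 1.08 summits and 10.7% next to another, and changed the difference from narrower peaks to -29.1 percentage points for the middle part and 1204 bp for the gap, from -25.3 and 1921. Against narrower peaks of like strength, a −log10 p of 6.81 to 44.6, the differences were -32.8 and 1429 bp. From summit to summit the median distance was 7211 bp and the difference 2973 bp, and within 50 kb 9.91 summits were counted. Supercontigs with at least 50 peaks left 667 with a broad region and 1.35 summits within 10 kb. In AaegL5, 23791 peaks were broad under at least 1 reading, and 19.4% or 18.9% of surely broad regions were at gene ends with windows of 2500 bp or any overlap. The other 23 values stayed within their intervals or, for counts, within 1.5 times, and no difference from narrower peaks changed its sign. A q below 0.05 removed no broad region.

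No paired analysis was possible because the replicates were pooled before the peaks were called and there is 1 group. For the same reason leaving out each replicate was not run. The peaks carry no values per replicate, so spread between embryos' libraries is absent from every interval. Peaks just above 2500 bp in AaegL5 are undecided more often than wider ones, which thins the first part of the surely broad class.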
